A study of Mus musculus with 24 samples.

Results

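Aminoacyl-tRNA synthetases are the enzymes that load each transfer RNA with its amino acid. Their genes were taken by symbol alone from tables of 35742 genes: the synthetase symbols of the cytosolic set, and the same symbols ending in 2 for the mitochondrial set, 37 genes in all. Of these, 20 code for cytosolic enzymes and 17 for mitochondrial ones. The RNA-seq libraries came from V6.5, a mouse embryonic stem (mES) cell line in which BRD2, a chromatin reader that binds acetylated histones, carries a degron tag. All 8 groups carried the degron and received doxycycline (Dox, 1 µg/ml for 18 h). The treated group of each stage also received the auxin IAA (500 µM for 24 h), which triggers degradation of a protein that carries such a tag. The 4 stages were undifferentiated mES cells, and embryoid bodies (EB), cell aggregates in which stem cells begin to differentiate, on day 2 (EBd2), day 3 (EBd3) and day 4 (EBd4). Each group held 3 libraries, 24 in all. The labels do not say when IAA was added during EB culture, how many clones of the line were used, or whether the 3 libraries came from separate cultures, so the p-values measure only the spread between these libraries.

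A synthetase activates its amino acid with ATP and joins it to the matching transfer RNA, and the accuracy of this step sets the accuracy of translation. In mammals some cytosolic synthetases (those for aspartate, glutamate and proline, isoleucine, lysine, leucine, methionine, glutamine and arginine) sit in 1 large multisynthetase complex, held together by the scaffold proteins AIMP1, AIMP2 and EEF1E1. The others are found outside this complex. Mitochondria translate their own genome with enzymes that are made in the cytosol from separate nuclear genes and imported. Gars and Kars are exceptions, since each gene supplies both compartments. Many cytosolic synthetase genes are known targets of ATF4, the transcription factor that cells make when amino acids run short.

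Libraries held 7819522 to 15732767 reads. In EBd4 every IAA library was deeper (9007143 to 10598075 reads) than every Dox library (7941180 to 8120480 reads). Pairs of libraries within a group had a chi-square of 1.11 to 4.90 per degree of freedom, where sampling noise alone gives 1, and none was a copy of another. The libraries farthest from both others of their group were EBd4 IAA 1 (3.40 and 4.90, where the other pair had 1.92), EBd2 Dox 3 (4.09 and 3.44, other pair 1.27) and EBd3 IAA 3 (2.11 and 3.10, other pair 1.52). The degron acts on the protein, so RNA cannot show whether BRD2 was lost. Summed pluripotency markers were highest in mES (13810 to 14815 TPM over 8 genes, against 4417 to 6789 TPM in all EB libraries), and the 5 mesoderm markers summed to 170.2 to 420.8 TPM in EBd4 Dox against at most 11.0 TPM in the other Dox groups. Synthetase transcripts made up 0.637% to 0.908% of the reads of a library. All 37 genes passed the filter on low values (a mean of at least 1) in every comparison.

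Averaged over the 24 libraries, each cytosolic synthetase gene was expressed above each mitochondrial one. In TPM, a level per exonic length that can be compared between genes, means over the 24 libraries ran from 93.5 for Cars (cysteine) to 580.4 for Gars (glycine). Gars and Kars (lysine, 500.3 TPM), the pair that serves both compartments, had the highest means of the 20, followed by Nars (asparagine, 384 TPM), Iars (isoleucine, 324 TPM) and Aars (alanine, 304 TPM). At the low end, above Cars, stood Yars (tyrosine, 104 TPM) and Eprs (glutamate and proline, 117 TPM). Mitochondrial genes ranged from 7.11 TPM for Wars2 (tryptophan) to 77.9 TPM for Iars2 and 77.0 TPM for Rars2 (arginine). Within single groups the cytosolic and mitochondrial ranges crossed. In EBd2 Dox, Cars was at 64.0 TPM and Rars2 at 86.4 TPM, and in EBd4 Dox, Cars was at 79.9 TPM and Iars2 at 84.7 TPM. The top pair of the mitochondrial set changed places between stages: in mES Dox, Iars2 was at 74.1 ± 0.26 TPM and Rars2 at 80.4 ± 1.26 TPM (SD, n = 3), and in EBd4 Dox they were at 84.7 ± 3.75 and 67.0 ± 2.38 TPM. Gars and Kars also changed places, with 590.4 ± 22.0 and 451 ± 3.08 TPM in mES Dox against 468.6 ± 17.3 and 510.05 ± 13.2 TPM in EBd2 Dox. All further levels are counts normalised by a size factor per library, which compare libraries but not genes.

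The first question was how these genes behave as control cells differentiate. From mES to EBd2 most cytosolic synthetase genes fell: 15 of 20 fell and 3 rose (limma on log2 values, Benjamini-Hochberg adjusted p below 0.05), with a median log2 change of -0.49. Over all genes tested, 29.1% fell and 35.0% rose, with a median of 0.07. Among the 2330 genes at least as abundant as Hars, the cytosolic member with the lowest mean normalised count, 40.0% fell and 45.7% rose. The mitochondrial genes did not share a direction, with 6 of 17 up, 6 down and a median of -0.03. From EBd2 to EBd3, 11 cytosolic genes rose and 4 fell (median 0.13; 22.0% and 24.4% of all genes, 31.7% and 43.1% of the abundant ones), while 3 mitochondrial genes rose and 10 fell (median -0.17). From EBd3 to EBd4, 2 cytosolic genes rose and 13 fell (median -0.13; 16.1% and 17.6% of all genes, 26.9% and 34.2% of the abundant ones), and 4 mitochondrial genes rose and 3 fell. Consecutive steps share the libraries of the stage between them, so a low EBd2 group enters the first step as a fall and the next as a rise. In bulk RNA, fewer cells of a type and less RNA per cell cannot be told apart. EBd2 Dox libraries also differed in other values. Their 10 most abundant genes took 2.89% to 3.05% of reads, against 3.51% to 3.53% in mES Dox and 3.50% to 3.65% in EBd3 Dox. Reads from the mitochondrial genome made up 0.831% to 0.892%, against 1.05% to 1.07% and 1.14% to 1.19%. Depth was 11005217 to 13992700 reads in EBd2 Dox and 8353587 to 9371177 in EBd3 Dox. The part of these values in the steps was not tested.

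Within the multisynthetase complex, 7 of 8 genes fell from mES to EBd2, and Kars alone rose (0.10 ± 0.03 log2, SE; this call was lost with edgeR). The deepest fall of the complex was that of Qars, the glutaminyl enzyme (ENSMUSG00000032604, chromosome 9, 108507706 to 108515941, plus strand; all gene positions are on mm10). Qars was at 4221, 4341 and 4213 normalised counts in the mES Dox libraries, and at 2137, 2111 and 2226 in EBd2 Dox. It then stood at 2255, 2309.8 and 2319 in EBd3 Dox and at 2633, 2785 and 2828 in EBd4 Dox. Each EBd4 library was above each EBd2 library, and all EB libraries were far below all mES libraries. The step to EBd2 was -0.98 ± 0.04 (adjusted p = 4.6e-17), and the step from EBd3 to EBd4, 0.26 ± 0.04 (adjusted p = 7.18e-06), was the largest cytosolic rise there.

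Lars, the leucyl enzyme of the same complex, alternated instead. It was at 4761, 4771 and 4811 in mES Dox, 3061, 3144 and 3066 in EBd2 Dox, 4344, 4408 and 4040.0 in EBd3 Dox and 3003, 2853 and 2939.6 in EBd4 Dox. None of these neighbouring groups overlapped, and the EBd2 and EBd4 groups were both low. The steps were -0.63 ± 0.04, 0.46 ± 0.04 and -0.54 ± 0.04 (adjusted p = 1.62e-13, 2.23e-10 and 5.02e-11), the last being the largest cytosolic fall from EBd3 to EBd4.

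Outside the complex, 8 of 12 genes fell from mES to EBd2 and 2 rose, Farsa and Wars. Sars, the seryl enzyme (ENSMUSG00000068739, chromosome 3, 108424865 to 108445209, minus strand), had both the largest cytosolic fall to EBd2 and the largest rise to EBd3. It was at 4090.2, 4316 and 4403 in mES Dox and at 2049, 2069 and 2064 in EBd2 Dox. In EBd3 Dox it was at 3375, 3421 and 3344, and in EBd4 Dox at 3275, 3050.2 and 3311. EBd2 was thus the lowest group by a wide gap, with no overlap with either neighbour (steps of -1.05 ± 0.04 and 0.71 ± 0.04, adjusted p = 1.77e-17 and 3.18e-13). The mitochondrial seryl enzyme, Sars2 (ENSMUSG00000070699, chromosome 7, 28741992 to 28753871, plus strand), ran the other way. It was at 355, 364 and 333 in mES Dox, at 659.9, 663 and 634 in EBd2 Dox, at 313, 318 and 399 in EBd3 Dox and at 270.0, 310.3 and 322 in EBd4 Dox. Here EBd2 was the highest group (0.89 ± 0.08, then -0.93 ± 0.08, adjusted p = 1.12e-09 and 1.84e-09), the largest mitochondrial rise of the first step and the largest fall of the next. Sars2 starts 172 bp from the divergent start of Mrps12, which codes for a mitochondrial ribosomal protein.

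The phenylalanyl enzyme of the cytosol is built from 2 kinds of subunit, coded by Farsa (ENSMUSG00000003808, chromosome 8, 84856989 to 84869257, plus strand) and Farsb (ENSMUSG00000026245, chromosome 1, 78417975 to 78488897, minus strand). Their transcripts had different courses, although the difference between the genes was not tested. Farsa was at 1735, 1734 and 1704 in mES Dox, 2561, 2645 and 2434 in EBd2 Dox, 1624, 1737 and 1718 in EBd3 Dox and 1473, 1435 and 1469 in EBd4 Dox. Farsb was at 1856, 1918 and 1919, then 1866, 1927 and 1824, then 1878, 1899 and 1826, and last 1564, 1504 and 1472 in the same groups. So Farsa peaked in EBd2 while Farsb kept the same range until EBd4. The step to EBd2 was 0.56 ± 0.04 for Farsa (adjusted p = 1.56e-11, the largest cytosolic rise) and -0.02 ± 0.04 for Farsb (adjusted p = 0.689). The step to EBd3 was -0.59 ± 0.04 for Farsa (adjusted p = 3.36e-11) and -0.00 ± 0.04 for Farsb.

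Among mitochondrial genes, Vars2 (valine; ENSMUSG00000038838, chromosome 17, 35655634 to 35667592, minus strand) fell most from mES to EBd2, from 712, 731 and 717 to 386, 348 and 381, with no overlap (-0.95 ± 0.07, adjusted p = 1.99e-11). Wars2 was lowest in mES Dox, at 73.4, 74.7 and 79.0, and higher in EBd2 Dox, at 129, 127 and 149 (0.82 ± 0.11, adjusted p = 3.94e-07). It was at 132, 119 and 128 in EBd3 Dox and at 153, 176 and 159 in EBd4 Dox, the largest mitochondrial rise of that step (0.36 ± 0.11, adjusted p = 0.0126, lost without EBd3 Dox 2 or EBd4 Dox 2). Iars2 rose most from EBd2 to EBd3, from 1419, 1589.7 and 1555 to 2016, 2018 and 1939.9, again without overlap (0.39 ± 0.05, adjusted p = 1.22e-07). Of its exonic length, 22.9% is shared with Rab3gap2 on the opposite strand, and whether the authors counted by strand is not given in the sources used here. Mars2 (methionine) fell at each step, from 448, 399 and 395 in mES Dox to 313, 339 and 344, then 230.3, 291 and 272, then 227, 211 and 220.3. Its EBd3 and EBd4 groups do not overlap, and that step, -0.26 ± 0.08 (adjusted p = 0.0171), was the largest mitochondrial fall there. It was lost without EBd3 Dox 2, EBd3 Dox 3 or EBd4 Dox 2.

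**Figure D1:**
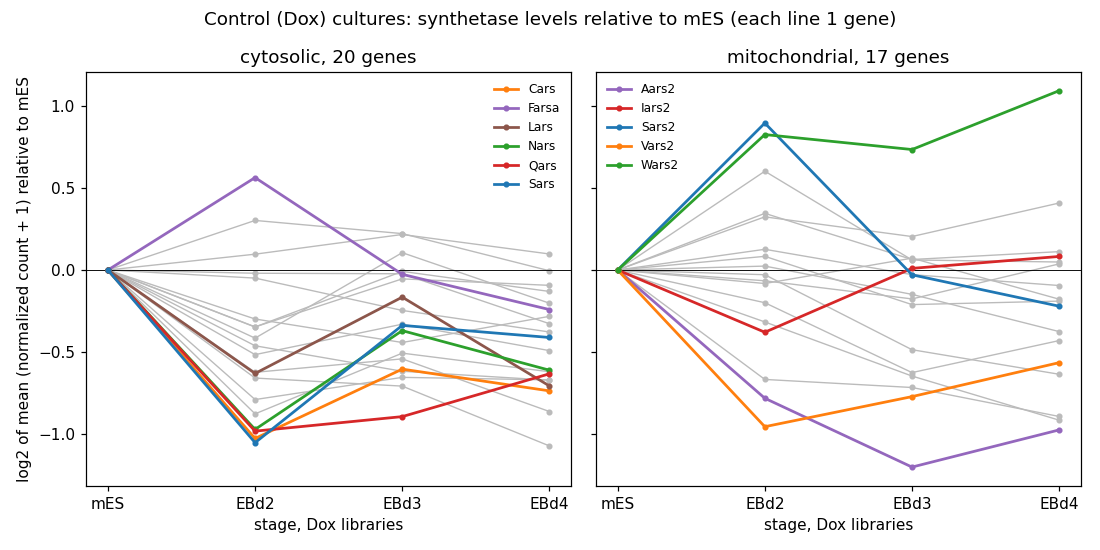
Level of each synthetase gene in the Dox libraries of the 4 stages, as the log2 of the mean normalised count plus 1 relative to mES, with 1 line per gene, cytosolic on the left and mitochondrial on the right. Most cytosolic lines drop at EBd2 (15 of 20 fell, and Farsa rose), while mitochondrial lines spread on both sides (6 up and 6 down), with Sars2 and Wars2 high and Vars2 low.

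The second question was what IAA did at each stage. The largest share of cytosolic genes moved one way in EBd2. There 11 of 20 cytosolic genes rose with IAA and 0 fell (limma, adjusted p below 0.05; 0 fell at an unadjusted p below 0.05, and 0 with edgeR or DESeq2), with a median log2 fold change of 0.17. Over all genes tested in EBd2, 13.4% rose and 16.7% fell, with a median of -0.04. Among the 2330 abundant genes, 28.7% rose and 19.2% fell. Mitochondrial genes split, with 2 of 17 up, 2 down and a median of 0.001, so that 15 of the 37 passed (30.1% of all genes). Summed over the 20 cytosolic genes, the level was 4099 to 4375 TPM in EBd2 Dox and 4482 to 4583 TPM in EBd2 IAA, without overlap. The mitochondrial sum was 608 to 634 TPM in Dox and 585 to 608 TPM in IAA. The IAA levels in EBd2 stayed below those of mES, where the cytosolic sum was 5288 to 5445 TPM in Dox and 5154 to 5246 TPM in IAA. The mES difference depended on the scale. As a share of reads, cytosolic genes overlapped between the mES groups (0.791% to 0.813% in Dox, 0.788% to 0.794% in IAA). In EBd2 the shares did not overlap (0.562% to 0.593% in Dox, 0.626% to 0.638% in IAA). In EBd3 the cytosolic sum was lower with IAA, at 4944 to 5071 TPM in Dox and 4768 to 4884 TPM in IAA. The EBd3 shares were apart too (0.670% to 0.684% against 0.653% to 0.664%). In EBd4 the cytosolic sums overlapped (4303 to 4427 against 4077 to 4378 TPM). The mitochondrial sum in mES was lower with IAA, without overlap (592 to 604 against 554 to 576 TPM).

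**Figure D2:**
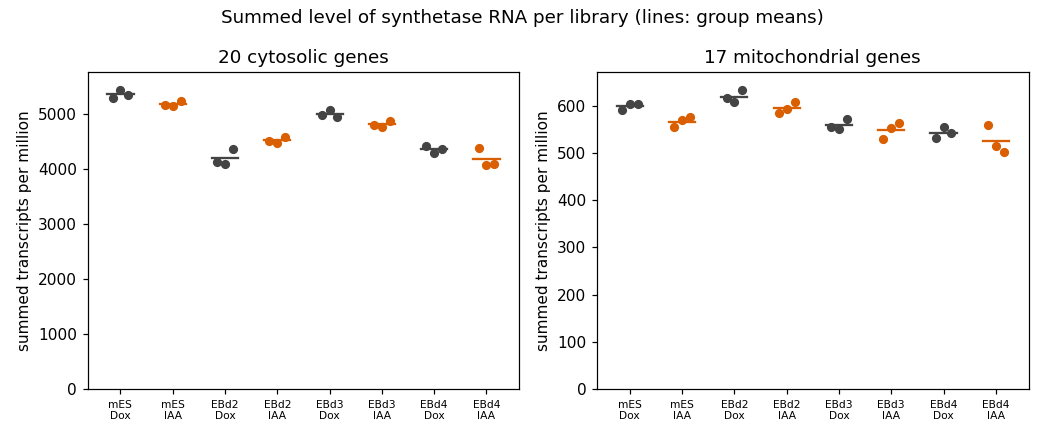
Summed level of the 20 cytosolic and of the 17 mitochondrial synthetase genes in each library, in TPM, by stage and treatment. Each point is 1 library, and short lines are group means. In EBd2 the 3 IAA libraries lie above the 3 Dox libraries in the cytosolic sum (4482 to 4583 against 4099 to 4375 TPM). In mES they lie below in TPM (5154 to 5246 against 5288 to 5445 TPM), but as a share of reads, not drawn here, the mES groups overlap. In EBd3 the IAA libraries also lie below the Dox libraries (4768 to 4884 against 4944 to 5071 TPM).

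In the complex, 4 of 8 genes rose in EBd2: Iars and Rars (each 0.23), Eprs and Lars (each 0.17). Qars (-0.01 ± 0.05), Kars (0.05 ± 0.04), Mars (-0.02 ± 0.05) and Dars (-0.09 ± 0.05) did not pass. Rars, the arginyl enzyme (ENSMUSG00000018848, chromosome 11, 35808381 to 35834506, minus strand), was at 1852, 2005 and 2064 in EBd2 Dox and at 2433, 2311 and 2210.0 in EBd2 IAA. All IAA libraries were above all Dox libraries, although the Dox libraries spread widely (0.23 ± 0.05, adjusted p = 0.00163). Lars was at 3061, 3144 and 3066 in Dox and at 3436, 3458 and 3532 in IAA, also without overlap (0.17 ± 0.04, adjusted p = 0.00405).

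Outside the complex, 7 of 12 genes rose in EBd2. Cars, the cysteinyl enzyme (ENSMUSG00000010755, chromosome 7, 143557230 to 143600090, minus strand), rose most, from 1209.9, 1121 and 1259.5 in Dox to 1577, 1577 and 1683 in IAA. The groups do not overlap, and the rise was 0.43 ± 0.05 (1.35-fold, adjusted p = 3.41e-06). Nars, singled out after its values were seen, rose as much, from 3257, 3205 and 3230.3 to 4223, 4373 and 4443 (0.43 ± 0.04, adjusted p = 1.36e-07). Aars (ENSMUSG00000031960, chromosome 8, 111033144 to 111057664, plus strand) rose from 7125, 6805 and 6989 to 9057, 9173 and 9039 (0.38 ± 0.04, adjusted p = 2.25e-07), with a gap between the groups several times the spread within them. Sars rose from 2049, 2069 and 2064 to 2415, 2386 and 2485 (0.24 ± 0.04, adjusted p = 0.000335). Tars (threonine, 0.26), Gars (0.23) and Yars (0.23) completed the 7. Each of the 11 cytosolic rises kept its call under every one of the 15 alternative settings. Farsa, Farsb, Hars, Vars and Wars, the 5 that did not pass, had values from -0.09 to 0.01. In all, 12 of 20 cytosolic genes had IAA libraries all above Dox and 2 had them all below, where 18.4% and 23.5% of all genes did so.

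Mitochondrial genes that moved in EBd2 were Vars2 and Iars2, which rose, and Sars2 and Yars2, which fell. Vars2 went from 386, 348 and 381 to 505, 448 and 498 (0.38 ± 0.07, adjusted p = 0.000301). Sars2 went from 659.9, 663 and 634 to 490.0, 509.7 and 539.6 (-0.35 ± 0.06, adjusted p = 0.000177). In both genes the groups were apart, in opposite directions. Iars2 rose from 1419, 1589.7 and 1555 to 1694, 1792 and 1792 (0.21 ± 0.05), and Yars2, the tyrosyl enzyme, fell from 673, 669 and 692 to 584, 604 and 577 (-0.20 ± 0.06, lost with DESeq2). Sars and Sars2 thus moved in opposite directions with IAA in EBd2, as they did from mES to EBd2 in Dox. Both comparisons use the same EBd2 Dox libraries, so they are not independent. With IAA in mES, in contrast, both genes fell (Sars -0.27, Sars2 -0.21).

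Other values moved with IAA in EBd2. Summed neuroectoderm markers (4 of 4 rose) were at 105.8 to 106.3 TPM in Dox and 206 to 219 TPM in IAA, and summed pluripotency markers (1 of 8 rose and 4 fell) at 6587 to 6789 against 5773 to 5867 TPM. Fibroblast markers, which would mark feeder cells, were low in both (14.3 to 19.6 against 10.1 to 10.8 TPM over 6 genes), with Lum at 0 in the IAA libraries. Mesoderm markers were at 9.91 to 11.0 against 6.16 to 7.77 TPM, and endoderm markers at 8.69 to 10.7 against 11.0 to 12.7 TPM, with Ttr at 0 in both and Afp at 0 in Dox. Reads from the mitochondrial genome made up 0.831% to 0.892% of Dox libraries and 0.959% to 1.03% of IAA libraries. The 10 most abundant genes took 2.89% to 3.05% against 3.22% to 3.38%. The part of these values in the synthetase result was not tested. Without EBd2 Dox 3, the library farthest from the others here, the number of cytosolic genes that rose was again 11.

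In undifferentiated mES cells the cytosolic genes had no common direction. With IAA, 5 of 20 rose and 6 fell, with a median of -0.004 (all genes: 17.3% up, 20.1% down, median -0.01; among the 2330 abundant genes, 44.2% up and 22.1% down). Rises were those of Aars (0.33), Cars (0.16), Nars (0.11), Vars (0.08) and Eprs (0.07). Falls were those of Farsb (-0.29), Sars (-0.27), Rars (-0.11), Lars (-0.07), Mars (-0.07) and Kars (-0.06). Aars was at 10871, 11191 and 10932 in Dox and at 13895, 13642 and 13847 in IAA (0.33 ± 0.02, adjusted p = 2.67e-17). Farsb was at 1856, 1918 and 1919 in Dox and at 1546, 1550.2 and 1552 in IAA (-0.29 ± 0.03, adjusted p = 7.51e-10). Sars was at 4090.2, 4316 and 4403 in Dox and at 3475, 3538 and 3614 in IAA (-0.27 ± 0.03, adjusted p = 1.29e-10). None of these 3 pairs of groups overlapped, and their calls held under all alternatives. The falls of Lars, Mars and Kars were each lost with TMM scaling, edgeR and DESeq2. The rises of Vars and Eprs were each lost in the joint fit of 24 libraries and without mES Dox 1. In mitochondria 1 gene rose, Vars2 (from 712, 731 and 717 to 904, 894 and 946; 0.34 ± 0.04, adjusted p = 9.1e-09), and 5 fell. The falls included those of Sars2 (-0.21, from 355, 364 and 333 to 282, 312 and 318), Yars2 (-0.18), Cars2 (-0.15) and Tars2 (-0.12), each of which was lost with DESeq2. By that test 9 of the 37 genes passed in mES, against 17 with limma (37.5% of all genes) and 16 with edgeR. Pluripotency markers summed to 13810 to 14163 TPM in mES Dox and 14352 to 14815 TPM in mES IAA (5 of 8 rose and 2 fell), and neuroectoderm markers to 239.9 to 261 against 264 to 282 TPM (2 of 4 rose and 1 fell), and their part in the result was not tested.

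**Figure D3:**
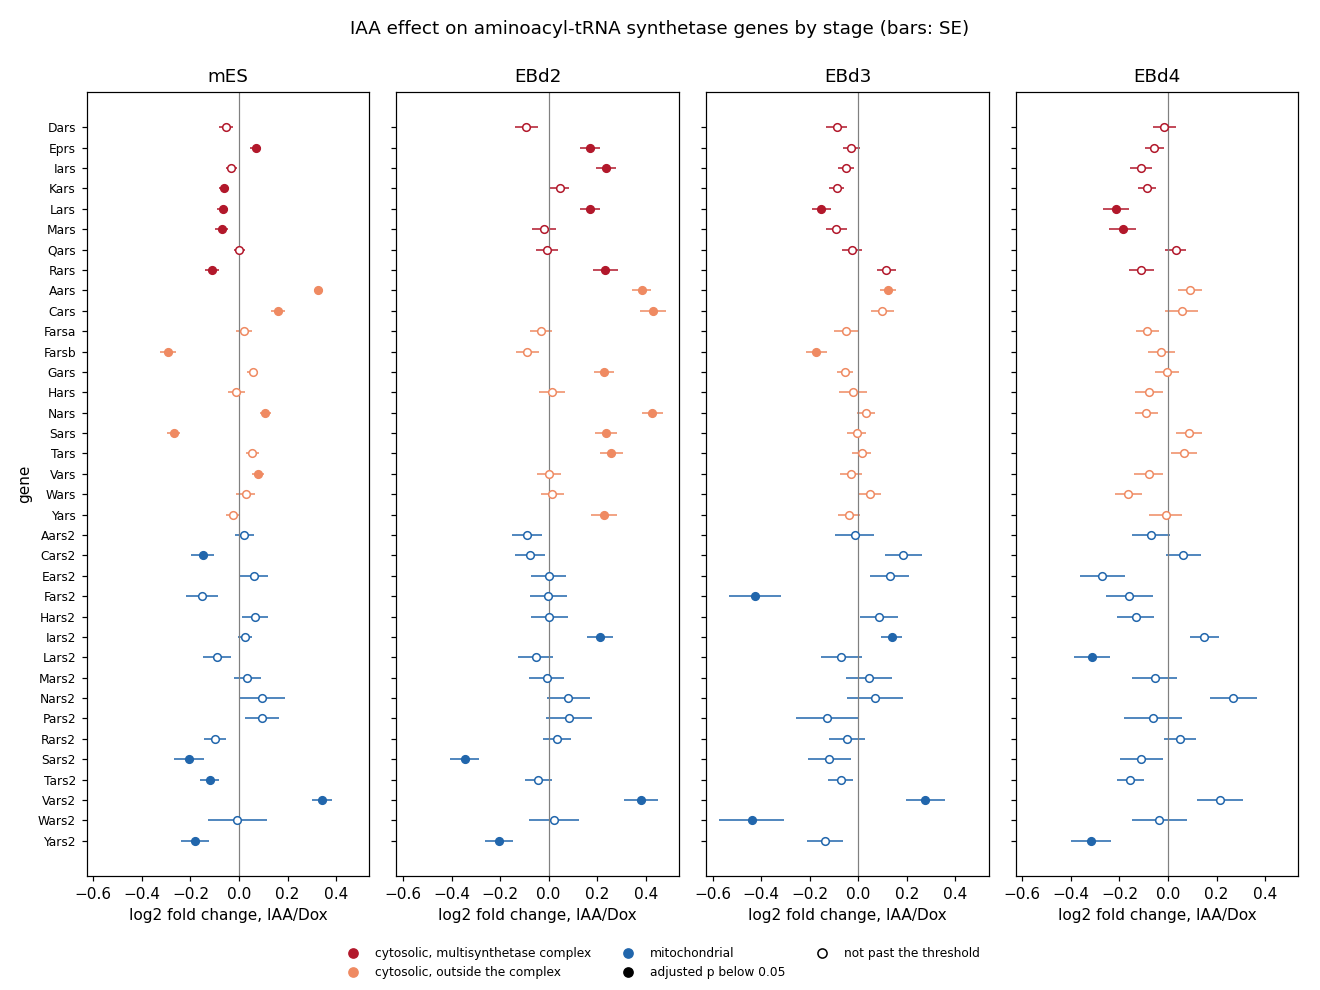
Effect of IAA on synthetase genes at each stage, as the log2 fold change of IAA over Dox from limma with its SE. Genes are grouped by complex, rest of the cytosol and mitochondria, and filled points passed an adjusted p of 0.05. In EBd2, 11 cytosolic points are filled and all are above 0, from 0.17 to 0.43; in mES, 5 filled cytosolic points are above 0 and 6 below.

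The effect of IAA was tested for a difference between stages, over all 24 libraries. It was more positive in EBd2 than in mES for 10 of 20 cytosolic genes and more negative for 0 (limma; 0 also at an unadjusted p below 0.05 and with edgeR or DESeq2), where 9.73% and 6.61% of all genes and 14.6% and 19.9% of the abundant genes did so. These were Sars, Rars, Nars, Iars, Cars, Yars, Lars, Farsb, Tars and Gars. Sars differed most, by 0.51 ± 0.06 (adjusted p = 1.37e-07), since it fell in mES and rose in EBd2. Aars, which rose in both, showed a difference of 0.06 ± 0.05 (adjusted p = 0.561). Between EBd2 and EBd3 the effect became more negative for 11 of 20 cytosolic genes and more positive for 0 (0 at an unadjusted p below 0.05; 0 with edgeR or DESeq2), where 4.29% and 2.92% of all genes and 10.8% and 6.27% of the abundant genes did so. They were Nars (-0.40), Cars (-0.33), Lars (-0.32), Iars (-0.29), Gars (-0.28), Aars (-0.26), Yars (-0.26), Tars (-0.25), Sars (-0.24), Eprs (-0.20) and Kars (-0.13). The call of Kars (adjusted p = 0.0499) was lost under 15 alternatives. The 2 differences share the EBd2 libraries, so a high EBd2 effect enters both with opposite sign.

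In EBd3 few synthetase genes moved. Among cytosolic genes 1 rose, Aars, and 2 fell, Farsb and Lars (median -0.03; all genes: 4.22% up, 6.32% down, median -0.01; abundant genes: 13.2% up, 8.8% down). Aars was at 6566, 6763 and 6891 in Dox and at 7530.1, 7187 and 7272 in IAA (0.12 ± 0.03, adjusted p = 0.0147). Farsb was at 1878, 1899 and 1826 in Dox and at 1684, 1630.1 and 1655 in IAA (-0.17 ± 0.04, adjusted p = 0.00999). Lars was at 4344, 4408 and 4040.0 in Dox and at 3961, 3742 and 3806 in IAA (-0.15 ± 0.04, adjusted p = 0.0108). In each of the 3 the groups were apart, though for Aars and Lars by a gap smaller than the spread of the Dox libraries. In mitochondria Vars2 (from 435, 443 and 388 to 511, 578 and 450.1; 0.28) and Iars2 (0.14) rose, and Fars2 (phenylalanine, -0.43) and Wars2 (-0.44) fell. Fars2 was at 201, 176 and 192 in Dox and at 132, 142 and 149 in IAA (adjusted p = 0.00869), and Wars2 at 132, 119 and 128 against 107, 78.3 and 95.5 (adjusted p = 0.0337). Fars2 also differed between EBd2 and EBd3 in its response (-0.42 ± 0.11, adjusted p = 0.0157), its EBd2 libraries being at 263, 256 and 245 in Dox and 253, 262 and 248 in IAA. That difference was lost without EBd3 Dox 1 or EBd3 IAA 1. The 7 calls of this stage (10.5% of all genes passed) were not stable when 1 library was left out. Without EBd3 Dox 1, 0 passed with limma, and 12 had an unadjusted p below 0.05. The count was 1 without Dox 2, 4 without Dox 3, 3 without IAA 1 and 4 without IAA 2. Without IAA 3, the IAA library farthest from its group, 7 passed. DESeq2 gave 3 and edgeR 7. Calls over all genes moved too, from 2245 to 1274, 1202 and 1463 without Dox 1, 2 and 3. They were 1321, 1776 and 2613 without IAA 1, 2 and 3. Marker levels moved with IAA here too. Neuroectoderm markers summed to 229 to 238 TPM in Dox and 291 to 322 TPM in IAA (1 of 4 genes rose), and pluripotency markers to 5154 to 5257 against 4487 to 4646 TPM (1 of 8 rose and 3 fell). Endoderm markers were at 10.9 to 14.2 TPM in the Dox libraries and at 14.3 TPM or more in every IAA library, with Ttr at 0 in both groups and Afp at 0 in Dox. Mesoderm markers (8.22 to 9.52 against 7.12 to 8.64 TPM) and fibroblast markers (30.9 to 37.6 against 25.7 to 37.0 TPM, Lum at 0 in both) overlapped between the groups. The share of mitochondrial-genome reads was higher in each IAA library (at least 1.25%) than in any Dox library (at most 1.19%). The part of these values in the EBd3 calls was not tested.

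In EBd4, 2 cytosolic genes fell with IAA, Lars and Mars, and 0 rose (limma; 0 also at an unadjusted p below 0.05 and with edgeR or DESeq2), against 5.57% and 4.69% of all genes and 9.96% and 12.8% of the abundant genes. Both belong to the complex. Lars was at 3003, 2853 and 2939.6 in Dox and at 2755, 2428 and 2413 in IAA (-0.21 ± 0.05, adjusted p = 0.0189), and Mars had a change of -0.19 ± 0.05 (adjusted p = 0.0419). In mitochondria Yars2 fell from 469.9, 499.6 and 417 to 387, 347 and 376 (-0.32 ± 0.08, adjusted p = 0.0229) and Lars2 changed by -0.31 ± 0.07 (adjusted p = 0.0151). No Lars or Yars2 library with IAA reached a Dox library of its stage. These 4 calls (10.3% of all genes passed) were also not stable when 1 library was left out. With limma, 0 of 37 passed without EBd4 Dox 1 and 0 without Dox 2 (10 and 9 at an unadjusted p below 0.05). The count was 2 without Dox 3, 5 without IAA 1, the library farthest from its group, and 1 without IAA 2. Without IAA 3 the calls of Lars and Mars were lost. DESeq2 gave 2 and edgeR 3. Calls over all genes moved too, from 2173 to 776, 837 and 1789 without Dox 1, 2 and 3. They were 1470, 887 and 2039 without IAA 1, 2 and 3. Depth differs between the groups of this stage, and so do marker levels. Endoderm markers summed to 29.0 to 44.3 TPM in Dox and 16.7 to 21.9 TPM in IAA (1 of the 3 genes tested fell), with Afp and Ttr at 0 in Dox and Sox17 at 0 in IAA. Pluripotency markers were at 4842 to 5065 against 4417 to 4457 TPM (4 of 8 rose and 3 fell). Mesoderm markers ran from 170.2 to 420.8 TPM in Dox and from 13.0 to 307.2 TPM in IAA (1 of 5 fell). Neuroectoderm markers (145 to 167 against 144 to 156 TPM, 1 of 4 rose) and fibroblast markers (24.3 to 45.2 against 41.0 to 62.0 TPM, 1 of the 4 tested fell, Lum at 0 in both) also overlapped. The part of depth and of these markers in the EBd4 calls was not tested. From EBd3 to EBd4 the IAA effect differed for Rars (-0.23 ± 0.06, lost under 8 alternatives), Wars (-0.21 ± 0.06, lost under 12) and the glutamyl enzyme of mitochondria, Ears2 (-0.40 ± 0.10, adjusted p = 0.017, lost without EBd4 Dox 2). Downward differences were called for 2.23% of all genes and 7.38% of the abundant genes, and upward ones for 2.71% and 6.78%. Ears2 was at 289, 293 and 267 in EBd3 Dox and 312, 319 and 296 in EBd3 IAA, then at 292, 309 and 261 in EBd4 Dox and 229, 232 and 251 in EBd4 IAA. Ears2 was thus higher with IAA in EBd3 and lower in EBd4, without overlap, although IAA against Dox did not pass for it in either stage. In EBd3 the groups lay close (293 in Dox against 296 in IAA).

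Across stages, 3 genes passed in the same direction in 3 stages with none against. Aars and Vars2 rose in mES, EBd2 and EBd3, and Yars2 fell in mES, EBd2 and EBd4. In EBd3 the call was lost under 3 of 15 alternatives for Aars and under 6 for Vars2. That of Yars2 was lost under 4 in mES, 1 in EBd2 and 4 in EBd4. In EBd4 Aars was at 5483, 5038 and 5191 in Dox and 6019.6, 5444 and 5293 in IAA, groups that overlap (0.09 ± 0.05, adjusted p = 0.292). Vars2 was at 433, 521 and 507 against 653, 534 and 512 there (0.21 ± 0.09, adjusted p = 0.183), also with overlap. For Yars2 in EBd3 the values were 421, 496 and 481 against 401, 435 and 432 (-0.14 ± 0.07, adjusted p = 0.281). Of the exonic length of Aars, 14.3% is shared with Exosc6 on the same strand, and 8.52% of that of Vars2 with the predicted gene Gm20483. Lars, Rars and Sars passed in opposite directions. Lars fell in mES, rose in EBd2 and fell in EBd3 and EBd4. Its mES values were 4761, 4771 and 4811 in Dox and 4559, 4549 and 4589 in IAA (-0.07 ± 0.02). Its falls were lost under 7 alternatives in mES, 2 in EBd3 and 5 in EBd4. Rars fell in mES, from 2493, 2524 and 2510.0 to 2348, 2265 and 2364 (-0.11 ± 0.03, adjusted p = 0.00199, lost in the joint fit of 24 libraries), and rose in EBd2. In EBd3 Rars was at 2391, 2446 and 2413 in Dox and 2542, 2649 and 2668 in IAA (0.12 ± 0.04, adjusted p = 0.0659), and in EBd4 at 2397, 2376 and 2282 against 2034, 2212 and 2298 (-0.11 ± 0.05, adjusted p = 0.21). In mES, EBd2, EBd3 and EBd4, respectively, 7, 15, 7 and 9 of the 37 genes in the authors' deposited table had an adjusted p below 0.05. There, 0 of the 37 were marked as changed in any stage, since the authors' mark needs an absolute log2 fold change above 1 and the largest in the authors' deposited table was 0.433.

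**Figure D4:**
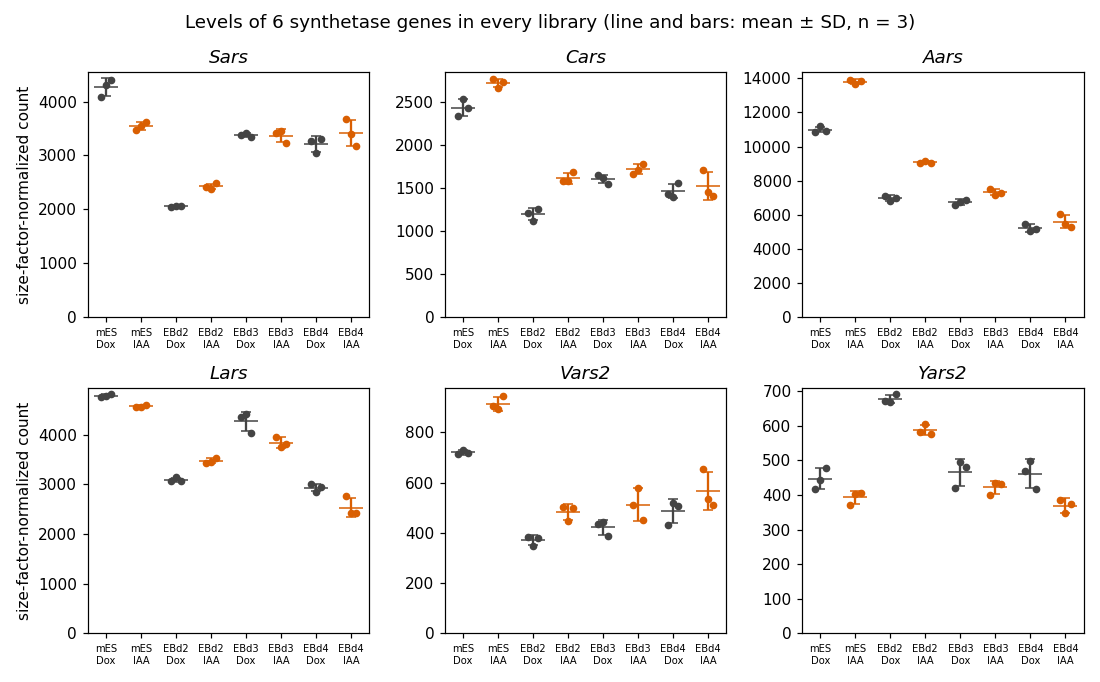
Size-factor-normalised counts of 6 synthetase genes in every library, by stage and treatment (black Dox, orange IAA); points are libraries, and lines and bars are the mean ± SD (n = 3). Aars is higher with IAA in mES, EBd2 and EBd3, and Sars is lower with IAA in mES (3475 to 3614 against 4090.2 to 4403) and higher in EBd2 (2386 to 2485 against 2049 to 2069).

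Promoter windows were then searched for 3 motifs of factors known to act on synthetase or growth genes. RefSeq windows on GRCm38.p6, from 250 bases before to 50 after the start, were at hand for 12 of the 20 cytosolic and 14 of the 17 mitochondrial genes, matched by symbol or gene identifier. TGATGNAA, the composite element that ATF4 binds with a C/EBP partner, was searched on both strands and was found in 5 of the 12 cytosolic windows and in 0 of the 14 mitochondrial ones. Of all 32851 windows, 3.97% held it. The 5 genes were Aars, Gars, Iars, Tars and Yars, all of which rose with IAA in EBd2, where 7 of the 12 genes with a window rose. Eprs and Sars also rose, and their windows did not hold the element. Cars, Nars, Lars and Rars rose too but had no window, so they were not searched. In mES, of the 5 genes with the element, Aars alone rose with IAA. Each line gives 30 bases around the match nearest the start of each gene, 5′ to 3′ on the strand of the gene, with the match in capitals; the capitals read TGATGNAA directly only in Yars, and on the opposite strand in the others.
Aars, chr8:111033840-111033869, plus strand: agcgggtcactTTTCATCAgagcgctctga
Gars, chr6:55037960-55037989, plus strand: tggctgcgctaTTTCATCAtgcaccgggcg
Iars, chr13:49682126-49682155, plus strand: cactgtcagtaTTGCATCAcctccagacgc
Tars, chr15:11399655-11399684, minus strand: caggagtcccgTTGCATCAgctggttagct
Yars, chr4:129189895-129189924, plus strand: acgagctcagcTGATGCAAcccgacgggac
These matches lay 30 and 15 bases before the RefSeq start in Gars and Tars, and began at base 10, 8 and 4 after it in Aars, Iars and Yars. Iars and Tars share the letters TTGCATCA, of which the match in Yars is the reverse complement, and Aars and Gars share TTTCATCA. Matches of CACGTG, the E-box that MYC and MAX bind, were in 4 cytosolic windows (Aars, Farsb, Iars and Tars) and 1 mitochondrial window (Ears2), against 7.15% of all windows. The NRF1 element, searched likewise, was in 3 cytosolic windows (Farsb, Kars and Tars) and 2 mitochondrial ones (Iars2 and Mars2), against 4.60%. With IAA in EBd2, 3 of the 4 cytosolic genes with CACGTG rose, and 1 of the 3 with the NRF1 element. Of the mitochondrial genes with either motif, Iars2 rose, and Ears2 and Mars2 did not. A match is a run of letters, and binding was not measured here.

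Genes that work beside the synthetases were followed as lists, to be read against the shares of all genes called, which were 17.3% up and 20.1% down for mES. For EBd2 these shares were 13.4% and 16.7%, for EBd3 4.22% and 6.32%, for EBd4 4.69% and 5.57%. Among the 2330 abundant genes the shares were higher, at 44.2% up and 22.1% down in mES and 28.7% and 19.2% in EBd2. In EBd3 they were 13.2% and 8.8%, and in EBd4 12.8% and 9.96%. The lists were not matched to other genes by level. Of 20 genes of the amino acid stress response, the programme that ATF4 drives, 18 rose and 0 fell in mES (median 0.30), and 14 rose and 0 fell in EBd2 (median 0.38). In EBd3 2 rose and in EBd4 5 rose, with medians of 0.02 and 0.06. Atf5, an ATF4 relative, rose in each stage (1.79, 2.12, 0.78 and 0.54). Atf4 itself rose in mES (0.71 ± 0.03) and EBd2 (0.20 ± 0.05), and Chac1, which breaks down glutathione, rose in mES (1.89 ± 0.09). Asns (asparagine synthesis, 0.73 ± 0.05) and Psat1 (serine synthesis, 0.60 ± 0.05) had, with Atf5, the smallest p of the list in EBd2. In mES, Asns rose by less (0.27 ± 0.02) and Psat1 was at 0.02 ± 0.02. Thus in mES the stress list moved one way while cytosolic synthetase genes moved both ways, and in EBd2 both lists had rises and no falls. Ddit3, a stress factor on the list that rose in mES (1.13) and EBd4 (0.92), overlaps the 3′ end of Mars by 68 bases, 1.99% of the exonic length of Mars.

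The scaffold genes of the complex moved little. Aimp1 (-0.16 ± 0.04) and Eef1e1 (-0.13 ± 0.04) fell in mES, and Aimp2 rose in EBd2 (0.21 ± 0.06). Among 8 synthetase-like and editing proteins, 1 rose and 3 fell in mES, 1 rose and 1 fell in EBd2, 2 fell in EBd3 and 1 fell in EBd4. The editing enzyme Dtd1, which removes D-amino acids from transfer RNA, fell in mES (-1.10 ± 0.10) and EBd3 (-0.56 ± 0.08). Its relative Dtd2 rose in mES (0.20 ± 0.05) and EBd2 (0.41 ± 0.07). Mitochondria make their glutaminyl-tRNA with an amidotransferase in place of a synthetase. Of its subunit genes, Qrsl1 fell in mES (-0.50 ± 0.07) and EBd2 (-0.53 ± 0.06), Gatb fell in mES (-0.46 ± 0.07), and Gatc rose in EBd2 (0.58 ± 0.09). Mtfmt, which formylates the initiator methionyl-tRNA, rose in both (0.45 ± 0.06 and 0.47 ± 0.09). Of the 6 selenocysteine pathway genes, 4 rose and 1 fell in mES, and 3 rose and 1 fell in EBd2. Pstk, the kinase that acts on seryl-tRNA of this pathway after Sars has loaded it, rose in all 4 stages (0.32, 0.27, 0.30 and 0.27).

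Of 5 lists that act before or after the loading step, 4 held both rises and falls in EBd2, and cytosolic elongation factors were the exception. Of 24 genes of transfer RNA processing and export, 6 rose and 7 fell in mES and 4 rose and 5 fell in EBd2, the latter counts near the shares of all genes (13.4% and 16.7%). Of the transfer RNA modification genes tested, 6 of 45 rose and 8 fell in mES, and 8 of 46 rose and 15 fell in EBd2 (median -0.06). Of 22 genes of RNA polymerase III and its factors, which transcribe transfer RNA genes, 9 rose and 2 fell in mES and 3 rose and 2 fell in EBd2. Among 7 cytosolic elongation factors, 4 rose in mES (list median 0.17) and 3 in EBd2 (list median 0.09). The others did not pass; their mES values ran from -0.12 to 0.02 and their EBd2 values from -0.10 to 0.09. Among 10 mitochondrial translation factors, 4 fell in mES, and 1 rose and 2 fell in EBd2. In EBd3 and EBd4 at most 5 genes of each of these lists passed in 1 direction.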

How the data were processed

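Per the submitters' processing notes, STAR 2.5.3a (reads aligned against mm10) was followed by counting with featureCounts 1.5.2 and normalisation with DESeq2; strandedness, annotation version and DESeq2 version are not given in the sources used here. The deposited signal values are counts that the authors divided by 1 size factor per library. Multiplied back, 100% of the positive values were whole reads (relative tolerance 1e-06), and the deposited mean is that of all 24 libraries, so the 4 tables share 1 scaling. The deposited log2 fold changes and their errors, the deposited score (the Wald statistic) and the deposited p-values are the authors' own, per the file headers, and were used for comparison only.

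The test was limma (3.58.1, trend) in R 4.3.3 on log2(value + 1), leaving out genes whose mean was under 1; p-values were adjusted over all genes (Benjamini-Hochberg, threshold 0.05). IAA was compared with Dox in the 6 libraries of each stage, Dox steps in the 12 Dox libraries and differences between stages in all 24. Recovered reads were also tested with edgeR (4.0.16), which called 7932, 6680, 2301 and 2192 genes in mES, EBd2, EBd3 and EBd4 (limma 7821, 6638, 2245 and 2173), and with DESeq2 (1.42.0). Other alternatives were constants of 0.5 and 5, no filter, a mean of at least 10, TMM scaling, a replicate block, a joint fit and leaving out each library. Scripts were tested on simulated data.

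Positions, exonic lengths and TPM used GENCODE M21, which held 35652 of the 35742 genes; 14339 genes have no symbol. Values in every library are given for genes that passed the same way in 3 stages or opposite ways in 2, or had the largest passed change of their compartment at a stage, a Dox step or a difference between stages. From each other list, genes with the smallest adjusted p were named. Of 48 transfer RNA modification genes, Ikbkap was not found. The members and lists were chosen with earlier results of these data known. Results on 1 member and 1 promoter site are not reported here.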

Additional observations from a re-analysis of the deposited data

Results flagged for a closer look

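The effect of IAA differed between consecutive stages for the genes below, by an interaction test over all 24 libraries (limma, Benjamini-Hochberg adjusted p below 0.05 over all genes). Values are differences of the log2 fold change of IAA over Dox, later stage minus earlier stage.

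In EBd2 against mES the effect was more positive for Sars (0.51), Rars (0.34), Nars (0.32), Iars (0.27), Cars (0.27), Yars (0.25), Lars (0.24), Farsb (0.21), Tars (0.20) and Gars (0.17). Sars, Rars and Lars passed as falls in mES and as rises in EBd2. Farsb fell in mES and had an EBd2 value that did not pass.

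In EBd3 against EBd2 it was more negative for Fars2 (-0.42), Nars (-0.40), Cars (-0.33), Lars (-0.32), Iars (-0.29), Gars (-0.28), Aars (-0.26), Yars (-0.26), Tars (-0.25), Sars (-0.24), Eprs (-0.20) and Kars (-0.13). Fars2 is the 1 mitochondrial gene among these 12. In EBd4 against EBd3 it was more negative for Ears2 (-0.40), Rars (-0.23) and Wars (-0.21).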

How the results depend on the processing

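No value changed sign with a call. The number of synthetase genes passing in mES was 9 with DESeq2 and 7 in the joint fit of 24 libraries, against 17 with limma, and 13 to 18 without 1 library. In EBd2 it was 15, and 15 to 16 without 1 library. In EBd3 it was 7, 3 with DESeq2, and 0 to 7 without 1 library. In EBd4 it was 4, 2 with DESeq2, 10 in the joint fit, and 0 to 5 without 1 library. For the Dox steps it was 30, 28 and 22, with ranges of 27 to 29, 24 to 30 and 16 to 24 without 1 library. For the differences between stages it was 11, 12 and 3, with ranges of 9 to 12, 10 to 12 and 0 to 3, and the last was 1 with no filter. The cause of these changes was not tested, beyond the smaller number of libraries where 1 is left out.

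Libraries with the same replicate number were no more alike than others. Their deviations from group means correlated by -0.18 to 0.094, and those of differently numbered libraries by -0.11 to 0.19. Pairing under other numbers was not tested. With a replicate block, 1 gene passed in EBd4, against 4 without it, and no other count moved by over 1.5 times. Genes below about 300 normalised counts, such as Wars2, Nars2, Pars2 and Fars2, have the widest errors, up to 0.13 log2 for IAA against Dox.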
